A study of Mus musculus with 2 samples.

Results

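*Bcl11a* and *Bcl11b* are 2 paralogous genes of the 28692 listed in the deposited matrices, and both were found in both libraries. They were chosen by name, and their transcripts were followed through barcodes selected by other genes. The libraries, FL001 and FL002, came from wild type CD1 mouse embryos at E13.5, whose fetal liver was depleted of TER-119+ cells and sorted for Sca-1+ cKit+ haematopoietic stem and progenitor cells (HSPCs). Both carry the same label, plates coated with the Notch ligand DL4 at 10 µg/mL and the adhesion molecule VCAM-1 at 2.32 µg/mL, with 1000 cells seeded per well. Cells taken straight from the sort and cells kept in culture for 4 or 7 days were both captured, per the study's description, but the labels do not say which of these times went into which library, and nothing says whether the libraries came from separate litters. The labels name the sorted input cells, whereas the barcodes held T-lineage transcripts at the time of measurement, with *Cd3g* at 1746 and 1531 CPM (UMIs per 1000000 UMIs).

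*Bcl11a* and *Bcl11b* encode C2H2 zinc finger transcription factors that recruit the NuRD and BAF chromatin complexes. *Bcl11a* is needed for early lymphoid progenitors, B cells and plasmacytoid dendritic cells, and in erythroid cells it represses embryonic and fetal globin genes. *Bcl11b* is switched on while a T-cell precursor commits, downstream of Notch signalling, *Gata3*, *Tcf7* and *Runx1*, and its loss leaves cells with access to natural killer-like and other fates.

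By Ensembl identifier, *Bcl11a* (ENSMUSG00000000861) lies on the plus strand of chr11:24078056-24174123 and *Bcl11b* (ENSMUSG00000048251) on the minus strand of chr12:107910403-108003602, in the GENCODE M21 annotation of GRCm38. The labels name mm9 and the matrices give no coordinates, so these positions are those of the annotation and not of the files. In that annotation 2 genes on the opposite strand overlap *Bcl11a*, *Gm12064* and *4930538E20Rik*. They held 0 UMIs in FL001, and 0 and 2 UMIs in FL002. No annotated gene overlaps *Bcl11b*.

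Barcodes were kept if they held 1500 or more UMIs (distinct tagged transcripts) from 500 or more genes, with no more than 10% of them mitochondrial. This left 1788 barcodes in FL001, with a median of 7722 UMIs, and 4100 in FL002, with a median of 4752.5. The 2 libraries shared 10 kept barcode sequences. Levels are CPM of the barcodes summed and shares are the percent of barcodes with at least 1 UMI, each with an exact Poisson or exact binomial 95% interval. These intervals cover counting error only. Each library was analysed alone, and cells of 1 library are not replicates, so no test was made between gates.

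Over all kept barcodes, *Bcl11a* was the more widely found of the pair. In FL001 it had 1173 UMIs, or 77.6 CPM (73.2 to 82.1), in 756 barcodes, which is 42.3% of them. In FL002 it had 1920 UMIs, or 90.2 CPM (86.2 to 94.3), in 1384 barcodes, or 33.8%. *Bcl11b* was found in 265 barcodes of FL001 (14.8%), with 502 UMIs and 33.2 CPM (30.4 to 36.2). In FL002 it was found in 329 barcodes (8.02%), with 482 UMIs and 22.6 CPM (20.7 to 24.8). The fewer barcodes with *Bcl11b* more often held several of its UMIs. Of the barcodes with *Bcl11b*, 50.2% in FL001 and 31.6% in FL002 had at least 2 of its UMIs, up to 9 and 5, whereas 35.6% and 27.8% of the barcodes with *Bcl11a* had at least 2 of its UMIs, up to 6 in each library.

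To order the barcodes by the course of T-cell differentiation without using the members, 5 gates were set on UMIs of other genes. The earliest gate held barcodes with at least 2 UMIs of *Lmo2* and *Mef2c*, transcription factors of early progenitors, and at most 1 of *Cd3g*, a subunit of the T-cell receptor complex. The Cd3g-low gate had at most 2 *Cd3g* UMIs with *Lmo2* and *Mef2c* at 1 or less, and the Cd3g-high gate had at least 3 *Cd3g* UMIs and none of *Il2ra*. The Il2ra gate had at least 1 UMI of *Il2ra*, which encodes CD25. The Ptcra/Lef1 gate had at least 2 UMIs of *Ptcra*, the pre-T-cell receptor alpha chain, and *Lef1*, a transcription factor of the same family as Tcf7. Gates overlapped, and 242 of the 404 Ptcra/Lef1 barcodes in FL001 and 224 of the 404 in FL002 were also in the Il2ra gate. Only 6 and 13 barcodes were in no gate.

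*Bcl11a* was highest in the earliest gate and was still present in all later ones. In FL001 its level was 135 CPM (124 to 148) in the Lmo2/Mef2c gate and 88.3 CPM (77.9 to 99.6) in the Cd3g-low gate. It was 55.1 CPM (49.5 to 61.2) in the Il2ra gate, 41.3 (34.6 to 48.9) in the Ptcra/Lef1 gate and 40.7 (33.6 to 48.8) in the Cd3g-high gate. The last 2 of these did not differ beyond their intervals, and the first gate stood 3.28 times above the Ptcra/Lef1 gate. In FL002 the levels in the same order were 141 CPM (130 to 153), 97.6 (89.8 to 106), 70.0 (64.4 to 75.9), 62.7 (52.1 to 74.7) and 65.7 (58.3 to 73.7). There the 3 later gates had overlapping intervals, and the first stood 2.25 times above the Ptcra/Lef1 gate. *Bcl11a* was thus lower in the later gates of FL001 than in those of FL002, while the 2 libraries had overlapping intervals in both early gates.

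*Bcl11b* had the opposite order. In the Lmo2/Mef2c gate of FL001, 2 of 428 barcodes held 1 UMI each, 0.540 CPM (0.0654 to 1.95), and in FL002 0 of 724 barcodes held any, which allows a share of up to 0.414% by a limit of 3 barcodes, or 0.508% by the exact binomial interval. The Cd3g-low gate had 3.03 CPM (1.39 to 5.76) in FL001 and 3.91 CPM (2.48 to 5.87) in FL002. Nearly all of the gene therefore lay in barcodes with *Cd3g*. Its level was 57.0 CPM (48.5 to 66.5) and 41.6 CPM (35.8 to 48.1) in the Cd3g-high gate, and 52.2 CPM (46.7 to 58.1) and 34.3 CPM (30.5 to 38.5) in the Il2ra gate. These gates did not differ beyond their intervals within either library, but both hold barcodes of the Ptcra/Lef1 gate, which took in 155 of the 327 Cd3g-high barcodes of FL001 and 169 of the 873 of FL002. With each barcode counted in 1 gate only, *Bcl11b* fell to 15.1 and 19.7 CPM in the Cd3g-high gate, where its share went from 24.2% to 8.72% in FL001 and from 14.2% to 7.95% in FL002. In the Il2ra gate it then had 25.4 and 24.4 CPM, and in the Cd3g-low gate 1.33 and 1.14 CPM. The Ptcra/Lef1 gate was above both, with 111 CPM (99.4 to 123) in FL001 and 116 CPM (101 to 132) in FL002. Against a limit of 3 UMIs in the whole Lmo2/Mef2c gate, which is 0.706 CPM, *Bcl11b* in the Ptcra/Lef1 gate of FL002 was 164-fold higher. The exact Poisson upper limit for 0 UMIs in the Lmo2/Mef2c gate was 0.868 CPM, which gives a smaller ratio. In FL001 the ratio to the 2 UMIs seen there was 205 (56.7 to 1691, from the counting interval of those 2 UMIs).

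**Figure D1:**
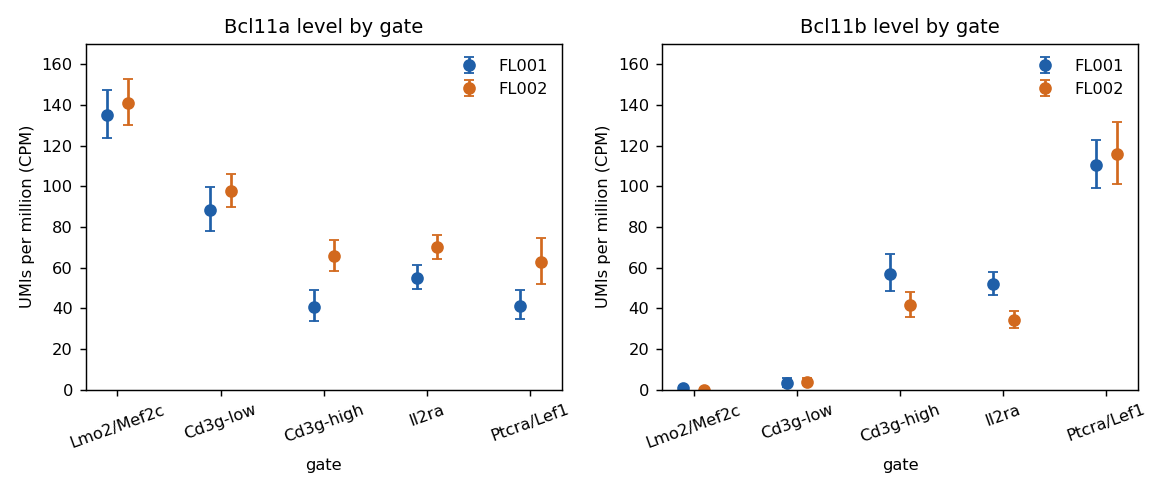
Level of *Bcl11a* (left) and *Bcl11b* (right) in CPM (linear axis) in the 5 gates of FL001 (blue) and FL002 (orange), with exact Poisson 95% intervals that cover counting error only. *Bcl11a* starts at 135 and 141 CPM in the Lmo2/Mef2c gate and stays above 40 in every later gate, while *Bcl11b* is near 0 in the 2 early gates and reaches 111 and 116 CPM in the Ptcra/Lef1 gate.

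The shares of barcodes put the first and last gates in the same order. *Bcl11a* was found in 64.3% of the Lmo2/Mef2c barcodes of FL001 (59.5 to 68.8) and in 26.2% of the Ptcra/Lef1 barcodes (22.0 to 30.8), and in 50.8% (47.1 to 54.5) and 25.0% (20.9 to 29.5) of those of FL002. *Bcl11b* was found in 45.0% of the Ptcra/Lef1 barcodes of FL001 (40.1 to 50.05) and 34.9% of those of FL002 (30.3 to 39.8). In the Il2ra gate it was found in 24.7% of the barcodes of FL001 (21.6 to 27.9) and in 200 of the 1668 of FL002 (10.5% to 13.6%). Shares move with depth, and FL001 was the deeper library. After each barcode was thinned to 1500 UMIs, *Bcl11b* was found in 16.6% and 15.8% of the Ptcra/Lef1 barcodes and in 7.99% and 5.04% of the Il2ra barcodes. *Bcl11a*, thinned, was found in 18.5% and 17.5% of the Lmo2/Mef2c barcodes and in 4.46% and 8.42% of the Ptcra/Lef1 barcodes. In thinned shares the 2 libraries lay close together for *Bcl11b* in the last gate and for *Bcl11a* in the first. The gates themselves were still set on all UMIs, which favours entry in the deeper library. Medians in FL001 and FL002 were 7163 and 4486 UMIs in the Ptcra/Lef1 gate and 8014.5 and 5649.5 in the Lmo2/Mef2c gate.

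RNA free in the suspension gives UMIs in barcodes of cells that lack a gene. Droplets with 1 to 100 UMIs, taken as empty, held *Bcl11a* at 65.0 CPM in FL001 and 93.4 in FL002, close to its level in kept barcodes, and *Bcl11b* at 15.4 and 17.8 CPM. Per 1000 droplets this came to 0.191 and 0.358 *Bcl11a* UMIs, against 656 and 468 per 1000 kept barcodes. The Lmo2/Mef2c gate serves as the reference for *Bcl11b*, since early progenitors precede its activation: at medians of 8014.5 and 5649.5 UMIs per barcode its shares were 0.467% and 0%. The shares of 1.31% and 1.23% in the Cd3g-low gate, at medians of 7462 and 4842 UMIs, overlapped the interval of the reference in FL001 (0.427 to 3.04 against 0.0566 to 1.68) and lay above it in FL002 (0.677 to 2.06 against 0 to 0.508). No gate without *Bcl11a* was found. Small sets were also chosen by markers of other cells. Barcodes with at least 10 UMIs of the innate lymphoid list other than *Id2* held *Bcl11a* in 1 of 9 in FL001 and 0 of 8 in FL002. Barcodes with at least 5 UMIs of the megakaryocyte markers held it in 7 of 16 and 0 of 13. The exact upper bounds for the sets at 0 were 36.9% and 24.7%, so they are too few to set a background.

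Among Il2ra barcodes, *Bcl11b* was higher the more UMIs of *Ptcra* and *Lef1* a barcode held. With no UMI of *Ptcra* or *Lef1* it was 21.2 CPM (16.8 to 26.3) in FL001 and 19.4 CPM (16.0 to 23.1) in FL002. With 4 or more it was 126 CPM (107 to 148) and 149 CPM (110 to 198). The share of barcodes went in the same bins from 11.1% to 57.0% in FL001 and from 7.18% to 36.6% in FL002, or, thinned to 1500 UMIs, from 2.90% to 19.7% and from 3.34% to 12.7%. With *Il2ra* itself the level did not go up in order. Barcodes with 1 *Il2ra* UMI had *Bcl11b* at 45.7 CPM (35.5 to 57.9) and 39.9 CPM (32.9 to 48.0), and barcodes with 8 or more had 38.3 CPM (27.6 to 51.8) and 23.1 CPM (10.5 to 43.8), with overlapping intervals in each library. Between them, with 4 to 7, FL001 had 63.1 CPM (52.4 to 75.2), just above the interval of its highest bin, and FL002 had 29.5 CPM (22.6 to 37.9). Barcodes with 8 or more *Il2ra* UMIs were deeper than those with 1, with medians of 10199 against 7693 UMIs in FL001 and 5323.5 against 4141 in FL002. The part of depth in these bins was not tested.

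**Figure D2:**
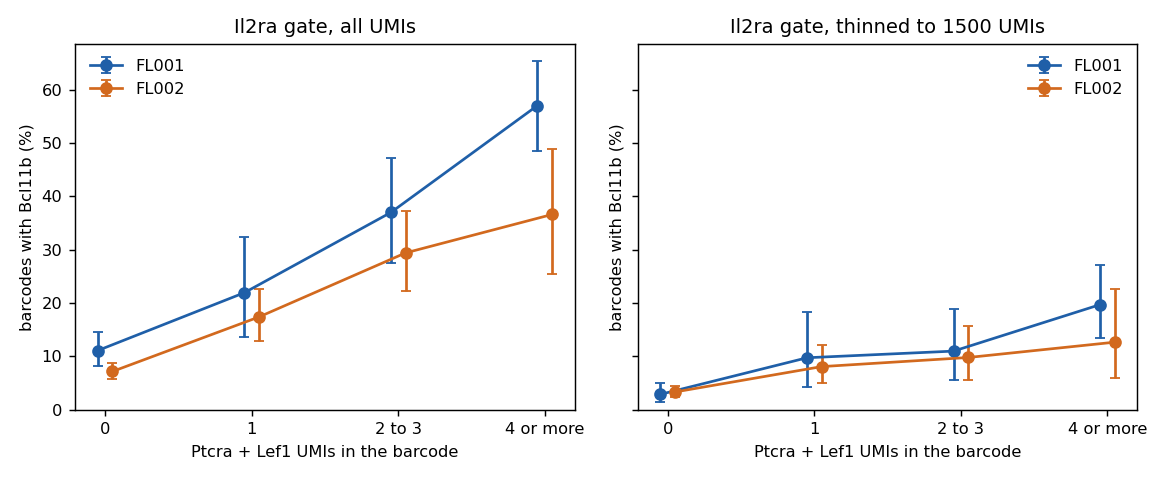
Share of Il2ra barcodes with at least 1 *Bcl11b* UMI (percent) against the summed UMIs of *Ptcra* and *Lef1* in the barcode, with all UMIs (left) and after thinning each barcode to 1500 UMIs (right), for FL001 (blue) and FL002 (orange), with exact binomial 95% intervals. The share goes from 11.1% to 57.0% in FL001 and from 7.18% to 36.6% in FL002 with all UMIs. The order is kept in the thinned shares with smaller values, where the bins are still set on all UMIs.

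*Bcl11b* was nearly limited to barcodes with *Cd3g*, without a further gain at the highest *Cd3g* counts. Il2ra barcodes with at most 2 *Cd3g* UMIs had *Bcl11b* at 6.72 CPM (2.47 to 14.6) in FL001 and 7.33 CPM (3.90 to 12.5) in FL002. With 6 to 11 *Cd3g* UMIs its level was 72.5 CPM (52.9 to 97.0) and 55.2 CPM (44.4 to 67.9). With 12 or more it was 60.7 CPM (53.7 to 68.3) and 37.8 CPM (32.1 to 44.3). Barcodes with 12 or more were deeper, with medians of 8052 and 4824 UMIs against 5336 and 3670.5 for 6 to 11. *Bcl11b* was lower in deeper Il2ra barcodes, as given below, and the part of depth in these bins was not tested. Of all barcodes with *Bcl11b*, 97.4% in FL001 and 95.4% in FL002 had at least 3 *Cd3g* UMIs, whereas 54.4% and 54.3% of all kept barcodes did.

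*Bcl11a* was higher in barcodes with *Lmo2* and *Mef2c* than in those without. Over all kept barcodes with no UMI of either gene it was at 52.9 CPM (48.3 to 57.7) in FL001 and 73.3 CPM (68.8 to 78.0) in FL002. With 4 to 7 UMIs it was at 158 CPM (139 to 180) and 142 CPM (125 to 161), where *Bcl11b* was found in 0 of 178 and 2 of 285 barcodes. With 8 or more it was at 111 CPM (89.9 to 136) in FL001, below the bin before, and at 153 CPM (114 to 201) in FL002, where the intervals overlap. Barcodes of that highest bin were deeper than those with 4 to 7, with medians of 10737.5 against 7582 UMIs in FL001 and 7574 against 6029 in FL002. The part of depth was not tested. *Bcl11b* was found there in 1 of 74 and 0 of 43 barcodes, whereas it was found in 22.5% and 11.2% of the barcodes with no UMI of either gene.

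Depth moved with the level of *Bcl11b*. When the Il2ra barcodes were split by their UMIs into 3 groups of equal number, *Bcl11b* was at 151 CPM (129 to 176) in the shallowest group of FL001, 38.7 CPM (30.5 to 48.4) in the middle and 28.3 CPM (22.9 to 34.6) in the deepest. In FL002 it was at 89.6 CPM (75.3 to 106), 34.1 CPM (27.2 to 42.2) and 14.9 CPM (11.5 to 19.0). Barcodes with fewer UMIs thus held *Bcl11b* at a higher level in both libraries, and were more often found with it, with shares of 37.8%, 18.3% and 17.9% in FL001 and 16.7%, 10.4% and 8.81% in FL002. The level of *Bcl11b* in the Ptcra/Lef1 gate had the same order. It went from 224 CPM (184 to 269) to 69.9 CPM (58.2 to 83.4) in FL001, and from 204 CPM (160 to 257) to 82.9 CPM (66.1 to 103) in FL002. The shares there had overlapping intervals, at 47.4%, 45.2% and 42.5% in FL001 and 32.6%, 37.0% and 35.1% in FL002. *Bcl11a* in the depth groups of the Il2ra gate stayed between 46.0 and 58.1 CPM in FL001 and between 67.8 and 78.5 CPM in FL002. In the shallowest group of the Ptcra/Lef1 gate *Bcl11a* was at 17.8 CPM (8.15 to 33.8) in FL001, against 45.1 CPM (35.8 to 56.2) in the deepest, and at 44.7 CPM (25.6 to 72.7) against 63.1 CPM (48.6 to 80.6) in FL002, where the intervals overlap. In the Lmo2/Mef2c gate *Bcl11a* was also higher in shallow barcodes, at 195 CPM (163 to 230) against 112 CPM (97.0 to 128) in FL001 and 177 CPM (150 to 208) against 126 CPM (111 to 142) in FL002. Each gate is a fixed number of UMIs, so a shallow barcode enters it only at a higher CPM of the gate genes. The part of this cut, cell size, cell cycle or capture in these values was not tested.

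**Figure D3:**
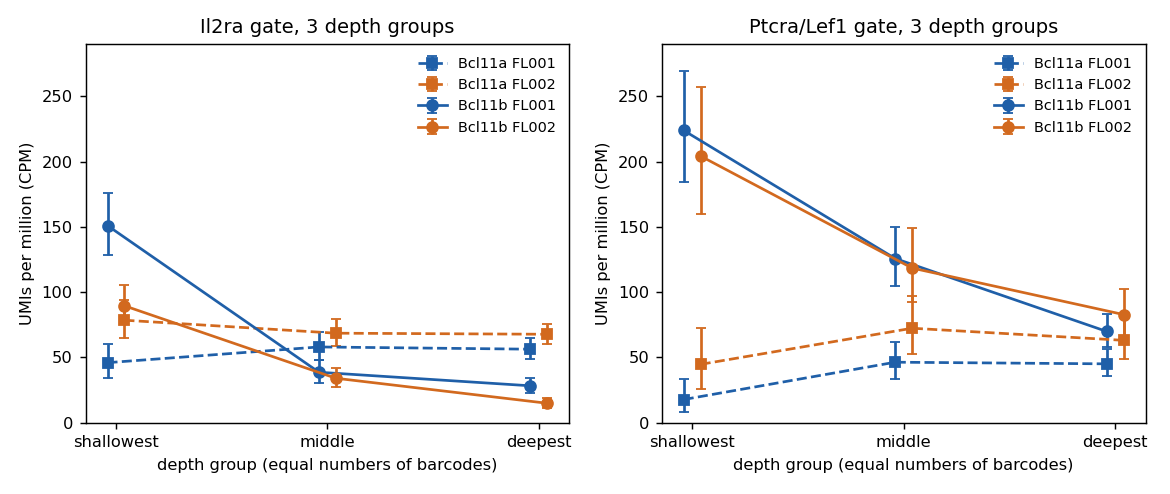
Level of *Bcl11a* (squares, dashed) and *Bcl11b* (circles, solid) in CPM in the Il2ra gate (left) and Ptcra/Lef1 gate (right) after each library's gate was split by UMIs per barcode into 3 groups of equal number, for FL001 (blue) and FL002 (orange), with exact Poisson 95% intervals. *Bcl11b* is highest in the shallowest group of both gates, 151 and 89.6 CPM in the Il2ra gate, while *Bcl11a* in that gate stays between 46.0 and 78.5 CPM.

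Both genes were found in 67 barcodes of FL001 and in 67 of FL002. The product of their shares over all kept barcodes would give 112.0 and 111.1, so both were found together 0.598 and 0.603 times as often. Among barcodes with *Bcl11b*, 25.3% in FL001 (20.2 to 31.0) and 20.4% in FL002 (16.2 to 25.1) also had *Bcl11a*, whereas 45.2% (42.7 to 47.8) and 34.9% (33.4 to 36.5) of the barcodes without *Bcl11b* had it. Within the Ptcra/Lef1 and Cd3g-high gates the numbers lay nearer to the product than over all kept barcodes. Within the Ptcra/Lef1 gate, 51 barcodes of FL001 held both, beside a product of 47.8, and 28 of FL002, beside 35.3. The latter was 0.794 times the product, close to the 0.782 of the Il2ra gate of FL001 described below. Within the Cd3g-high gate 18 and 32 held both, beside 21.3 and 33.5. In the Cd3g-low gate, where *Bcl11b* was rare, 0 and 2 held both, beside 2.35 and 5.11.

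The Il2ra gate, which spans barcodes with and without *Ptcra* and *Lef1*, lay below the product in each library, with 48 barcodes beside 61.4 in FL001 and 34 beside 55.4 in FL002. There *Bcl11a* was found in 26.4% of the barcodes with *Bcl11b* (20.1 to 33.4) and in 36.2% of those without (32.2 to 40.3) in FL001, and in 17.0% (12.1 to 22.9) and 29.2% (26.8 to 31.6) in FL002. The barcodes with *Bcl11b* were the shallower ones, with medians of 6104 against 8453 UMIs in FL001 and 3720 against 4541.5 in FL002. Thinned to 1500 UMIs, only 2 and 10 Il2ra barcodes held both, beside products of 3.60 and 8.16, so the difference was not detectable at that depth. *Cd3g* was found in 66 of 67 and 67 of 67 barcodes with both genes, but nearly all barcodes with *Bcl11b* held it, as given above. Early progenitor genes were found in some, *Spi1* in 11 and 17 of the 67, *Lmo2* in 3 and 4, and *Mef2c* in 3 and 6. Of the barcodes with both genes, 4 (5.97%) and 9 (13.4%) were among the 5% with the highest doublet scores.

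**Figure D4:**
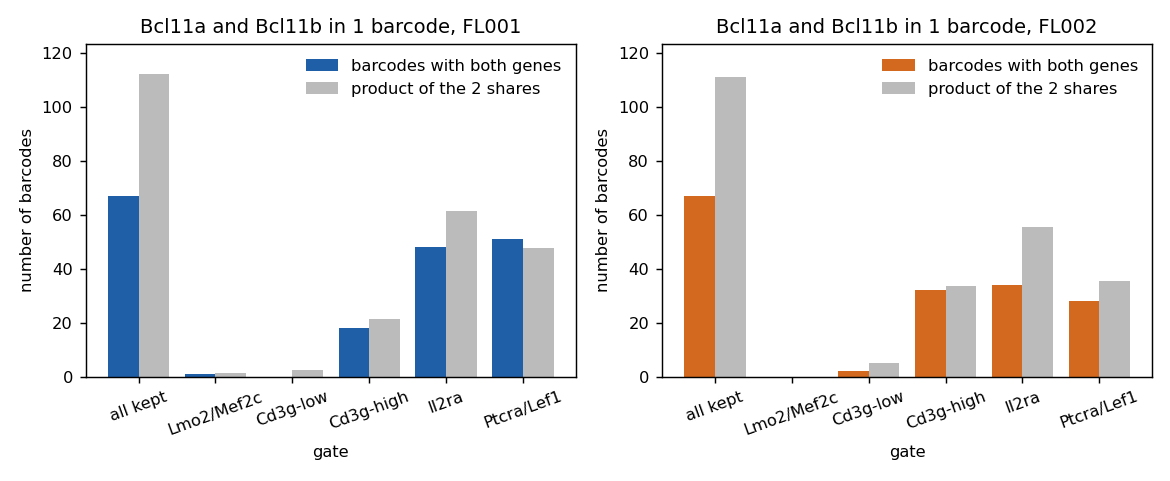
Number of barcodes with at least 1 UMI of both *Bcl11a* and *Bcl11b* (coloured bars) beside the number given by the product of their 2 shares (grey bars), in all kept barcodes and in each gate of FL001 (left) and FL002 (right). Over all kept barcodes 67 stand beside 112.0 and 111.1, while within the Ptcra/Lef1 gate 51 stand beside 47.8 and 28 beside 35.3.

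To find which transcripts accompanied *Bcl11b* within the Il2ra gate, its barcodes with *Bcl11b* (182 in FL001 and 200 in FL002) were compared with those without (556 and 1468). This gate is not a single stage, since 242 and 224 of its barcodes were also in the Ptcra/Lef1 gate. A gene was compared where it reached 50 CPM on either side in both libraries, and it was called higher or lower where the ratio of CPM + 10 was past 1.5-fold in both libraries. Every ratio given for these comparisons is one of CPM + 10, which understates the change of low genes. Of 3021 genes, 58 were higher with *Bcl11b* (1.92%) and 21 were lower (0.695%). In FL001 alone the counts were 88 and 39, and in FL002 alone 81 and 29. When barcodes without *Bcl11b* were weighted to the depths of those with it, 35 were higher and 17 lower, and of these 34 and 16 were among the 58 and 21.

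The genes higher with *Bcl11b* were led by *Crhbp*, which encodes a corticotropin-releasing hormone-binding protein. It had 90.2 CPM with *Bcl11b* and 12.8 without in FL001, and 113 and 13.8 in FL002, which are ratios of 4.40 and 5.17 on the CPM + 10 scale. *Lef1* had 276 and 72.9 CPM in FL001 and 113 and 24.3 in FL002. *Ptcra* had 239 and 47.2 CPM in FL001 and 230 and 68.3 in FL002. On the CPM + 10 scale the ratios of *Lef1* and *Ptcra* were 3.06 to 4.35. *Rag1*, the recombinase that cuts antigen receptor genes, had 54.7 CPM with *Bcl11b* and 10.0 without in FL001, and 65.3 and 17.1 in FL002. *Cdh1*, which encodes E-cadherin, had 208 and 60.9 CPM in FL001 and 154 and 44.1 in FL002. *Arpp21*, an RNA-binding phosphoprotein of immature thymocytes, had 214 and 49.2 CPM in FL001 and 224 and 73.2 in FL002. The others of the leading 12 were *Gal* (the neuropeptide galanin), *Fabp4* (a fatty acid-binding protein), *Bst1* (CD157), *Nrp1* (neuropilin-1), *Bex1* and *Atp8a1* (a phospholipid flippase), with ratios of CPM + 10 between 2.06 and 4.28.

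The genes lower with *Bcl11b* were led by *Serpina3g* and included *Spi1*, which encodes PU.1, a regulator of myeloid and B cells. *Serpina3g*, a serine protease inhibitor, had 14.8 CPM with *Bcl11b* and 80.6 without in FL001, and 22.1 and 89.3 in FL002. *Gzmb*, which encodes granzyme B, had 25.9 and 106 CPM in FL001 and 15.2 and 60.6 in FL002. *Tyrobp*, the DAP12 signalling adaptor, had 59.9 and 175 CPM in FL001 and 89.8 and 207 in FL002. On the CPM + 10 scale the side with *Bcl11b* stood at 0.274 to 0.459 of the other side for these 3 genes, in both libraries. *Spi1* had 12.6 and 50.3 CPM in FL001 and 33.8 and 71.5 in FL002. *Mpo*, the myeloperoxidase of granulocyte precursors, had 8.13 and 108 CPM in FL001 and 37.3 and 81.8 in FL002. The others of the leading 12 were *Cd48*, *Fgf3*, *Cd81*, *4930519L02Rik*, *Bex6*, *Tspan4* and *Lst1*, with ratios of CPM + 10 between 0.398 and 0.549.

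**Figure D5:**
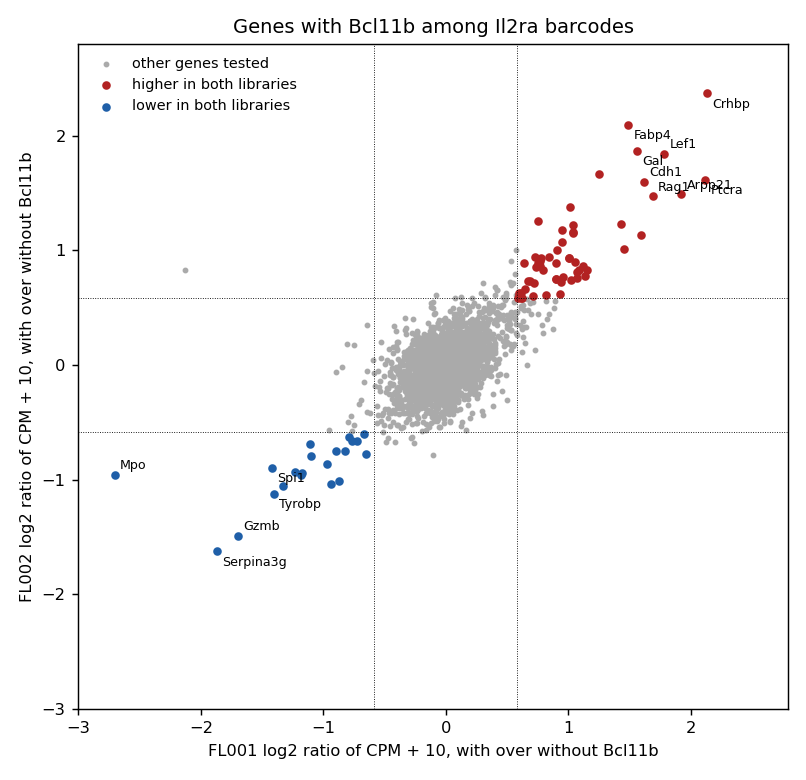
Log2 ratio of CPM + 10 between Il2ra barcodes with and without *Bcl11b*, FL001 on the horizontal axis and FL002 on the vertical, for 3021 genes. Dotted lines mark 1.5-fold, red points are the 58 genes higher in both libraries and blue points the 21 lower in both. The leading genes, *Crhbp*, *Lef1* and *Ptcra* on the high side and *Serpina3g* and *Gzmb* on the low side, lie far from the bulk in both libraries.

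Markers of other cells also moved between the 2 sides. The 7 myeloid markers summed to 18.5 CPM with *Bcl11b* and 301 without in FL001, but to 133 and 135 in FL002, and *Prtn3*, a granule protease, went opposite ways, at 4.44 and 53.3 CPM in FL001 and 61.8 and 30.4 in FL002. The 7 erythroid genes summed to 21.4 and 228 CPM in FL001 and to 6.99 and 5.05 in FL002. The 7 B lineage genes went the other way, with 118 and 77.1 CPM in FL001 and 146 and 86.9 in FL002. The 5 megakaryocyte markers summed to 11.1 and 43.2 CPM in FL001 and 6.99 and 30.8 in FL002. In each library 3 of them were at 0 with *Bcl11b* and 2 without. Most of each sum was *Itga2b*, with 10.3 and 40.9 CPM in FL001 and 5.83 and 27.6 in FL002. Without barcodes holding at least 20 myeloid UMIs, 57 genes were higher and 20 lower, all among the 58 and 21. Among Il2ra barcodes with no *Ptcra* or *Lef1* UMI, where *Bcl11b* was found in 46 of 414 and 86 of 1197, 48 genes were higher and 11 lower, of which 30 and 6 were among the 58 and 21. *Cdh1* had 93.6 and 26.5 CPM there in FL001 and 83.2 and 26.2 in FL002, ratios of CPM + 10 of 2.84 and 2.58, and *Serpina3g* had ratios of 0.380 and 0.384.

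The pathway was then described by lists. The published rules used here are logical rules that the study's IQCELL platform inferred from single-cell data of mouse thymocytes. They are model predictions. Of the regulators of *Bcl11b*, the study describes activation by Notch signalling, *Gata3*, *Tcf7* and *Runx1* as well known. Of 6 regulators in the published rule of *Bcl11b*, all were compared, 0 were higher and 2 were lower, *Spi1* and *Hhex*, a progenitor homeobox gene. *Hhex* had 53.2 CPM with *Bcl11b* and 97.7 without in FL001, and 57.1 and 96.0 in FL002. The positive inputs were not called. *Gata3* had 88.7 and 88.9 CPM in FL001 and 117 and 88.9 in FL002, *Tcf7* had 262 and 279 CPM in FL001 and 409 and 383 in FL002, and *Runx1* had 149 and 120 CPM in FL001 and 193 and 175 in FL002. *Notch1*, the receptor for DL4, was past the fold in FL001 only, with 253 and 151 CPM, against 249 and 167 in FL002. Of the 5 Notch targets, 4 were compared and 1 was higher, *Dtx1*, with 174 and 113 CPM in FL001 and 128 and 82.1 in FL002.

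Across the gates these regulators took different courses beside *Bcl11b*. *Tcf7* was at 24.8 CPM in the Lmo2/Mef2c gate of FL001 and 35.1 in FL002, and already at 174 and 229 CPM in the Cd3g-low gate, where *Bcl11b* was at 3.03 and 3.91. *Gata3* was at 15.4 and 14.6 CPM in the first gate, 53.2 and 53.0 in the Cd3g-low gate and 120 and 120 in the Ptcra/Lef1 gate. *Spi1* went from 128 and 178 CPM in the first gate to 27.1 and 42.9 in the last. *Tcf7* and *Gata3* were thus higher, and *Bcl11b* still far below its later levels, in the Cd3g-low gate of both libraries.

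Of 5 genes with *Bcl11b* in their own published rule, 4 were compared, 2 were higher and 1 lower. *Cd3e*, a subunit of the T-cell receptor complex, had 122 CPM with *Bcl11b* and 66.8 without in FL001 and 152 and 74.7 in FL002. *Tcf12*, an E-protein partner in T-cell gene control, had 157 and 91.2 CPM in FL001 and 149 and 86.9 in FL002. *Lyl1*, a progenitor bHLH factor, was lower, with 91.7 and 157 CPM in FL001 and 97.9 and 160 in FL002. *Cd3g* had 3887 and 2529 CPM in FL001 and 3311 and 2345 in FL002, past the fold in FL001 only. *Ets1* did not reach 50 CPM in FL001.

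Of 18 T commitment genes 11 were compared, 7 were higher, *Ptcra*, *Lef1*, *Rag1*, *Cd3d*, *Cd3e*, *Tcf12* and *Lck*, and 0 were lower. Their median log2 ratio was 0.78 in FL001 and 0.76 in FL002, beside -0.012 and -0.0078 over all genes compared. Of 12 early progenitor genes 5 were compared and 3 were lower, *Spi1*, *Lyl1* and *Hhex*, with medians of -0.72 and -0.66. This list holds *Bcl11a* itself, which was compared and not called, with 43.6 and 58.2 CPM in FL001 and 46.6 and 72.7 in FL002. The lists overlap, so *Spi1*, *Hhex*, *Lyl1*, *Cd3e* and *Tcf12* are each counted in more than 1 of them. The lists were chosen with earlier results of these data known, so their counts are a description.

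Of 8 genes known to rise in T cells that lose *Bcl11b*, 4 were compared and 1 was lower with *Bcl11b*, *Tyrobp*. Over all genes compared 0.695% were lower. The median log2 ratio of the 4 was -0.35 in FL001 and -0.26 in FL002, beside -0.012 and -0.0078 over all genes compared. *Fcer1g* had 274 CPM with *Bcl11b* and 405 without in FL001 and 267 and 306 in FL002, lower without passing the fold. *Id2*, an inhibitor of E proteins, lay on the other side without passing the fold, with 170 and 125 CPM in FL001 and 173 and 128 in FL002. *Kit* had 44.4 and 50.7 CPM in FL001 and 40.8 and 53.5 in FL002. *Zbtb16*, which encodes PLZF, was below the minimum, with 31.0 and 41.7 CPM in FL001 and 36.1 and 34.7 in FL002. Of 8 innate lymphoid genes only 1, *Id2*, was compared.

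No chromatin partner that was compared moved past the fold with *Bcl11b*. Over all genes compared 1.92% were higher and 0.695% lower, so counts of 0 in lists this short are near that share. Of 11 NuRD genes 9 were compared and 0 were higher or lower, with median log2 ratios of 0.011 and 0.11, and of 14 BAF genes 9 were compared and 0 were higher or lower, with medians of 0.016 and 0.023. Their summed levels were 1484 and 1462 CPM for NuRD and 1324 and 1266 CPM for BAF with and without *Bcl11b* in FL001. In FL002 they were 1485 and 1457 CPM for NuRD and 1338 and 1294 CPM for BAF. Of 8 cycling genes 7 were compared and 0 passed the fold, which is also near the share over all genes. Of 5 gamma delta genes 3 were compared and 1 was higher, *Trdc*, with 202 and 100.3 CPM in FL001 and 234 and 138 in FL002. Of 4 mast cell genes 2 were compared and 1 was lower, *Gzmb*, and of 7 myeloid genes 2 were compared and 1 was lower, *Mpo*. Of 6 dendritic genes 1 was compared and it was not called. No gene of the B lineage, megakaryocyte, erythroid or embryonic globin lists reached the minimum in both libraries. *Ighm* reached it in FL002 only, with 97.9 CPM with *Bcl11b* and 44.0 without. *Hbb-bs* reached it in FL001 only, with 7.39 and 123 CPM.

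Restricted to the Ptcra/Lef1 gate, the comparison of barcodes with *Bcl11b* (182 and 141) and without (222 and 263) gave fewer genes, and it was added after the first results were seen. Of 2983 genes 10 were higher (0.335%) and 1 was lower (0.0335%). Of the 10, 6 were also among the 58 higher in the Il2ra gate, which is 10.3% of those 58 and 60.0% of the 10, and the 2 gates share barcodes. *Crhbp* again led, with 208 and 25.2 CPM in FL001 and 256 and 101.0 in FL002. *H2-T3*, which encodes the thymus leukaemia antigen, had 172 and 68.4 CPM in FL001 and 75.8 and 16.8 in FL002. *Rag1* had 70.4 and 38.9 CPM in FL001 and 122 and 55.1 in FL002. The mitosis genes *Cenpf*, a kinetochore protein, and *Ube2c*, a ubiquitin enzyme of the anaphase-promoting complex, were also among the 10. *Cenpf* had 120.4 and 60.2 CPM in FL001 and 140 and 87.2 in FL002, and *Ube2c* had 227 and 145 CPM in FL001 and 262 and 152 in FL002. Of the 8 cycling genes 7 were compared here and 0 were called, with median log2 ratios of 0.24 and 0.29 beside 0.0086 and 0.014 over all genes compared. The others of the 10 were *Arpp21*, *Fabp4* and *Bex1*, with ratios of CPM + 10 between 1.54 and 2.24, and *Ablim1* and *Ccdc109b*, which were just past the fold in FL002. *Tyrobp* was the gene lower with *Bcl11b*, with 42.9 and 132 CPM in FL001 and 50.6 and 157 in FL002.

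For *Bcl11a* the matching comparison was made in the Lmo2/Mef2c gate, between 275 and 368 barcodes with the gene and 153 and 356 without. The medians of UMIs per barcode were 8610 and 7139 in FL001 and 5862 and 5278.5 in FL002. Of 3022 genes 3 were higher with *Bcl11a* (0.0993%) and 5 were lower (0.165%), far fewer than with *Bcl11b* among Il2ra barcodes. *Ighm*, the immunoglobulin mu heavy chain, had 214 CPM with *Bcl11a* and 104 without in FL001 and 153 and 84.0 in FL002. *Il12a*, an interleukin-12 subunit, had 89.2 and 46.9 CPM in FL001 and 89.8 and 49.6 in FL002. *Mgat1*, an enzyme of N-glycan synthesis, had 57.8 and 30.1 CPM in FL001 and 62.0 and 38.0 in FL002, just past the fold in the latter.

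The genes lower with *Bcl11a* were *Pf4*, a platelet factor of megakaryocytes, *Plek*, *Gng11*, *Id1* and *Lat*, and they rested largely on a few barcodes. *Pf4* had 14.7 CPM with *Bcl11a* and 1796 without in FL001 and 2.64 and 588 in FL002, but 3 barcodes in FL001 and 6 in FL002 held 96.7% and 92.4% of its UMIs. Without the 10 and 11 barcodes of the gate with at least 5 UMIs of the 5 megakaryocyte markers, 1 gene was lower, *Id1*, an inhibitor of DNA binding, with ratios of 0.447 and 0.587. *Plek* then had ratios of 1.06 and 0.710, and *Lat* 0.807 and 0.766. *Ighm* and *Il12a* kept ratios between 1.69 and 1.91, and *Mgat1* had 1.72 and 1.47.

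Of the 7 B lineage genes 1 was compared in this gate, *Ighm*, and of 6 dendritic genes 2 were compared and 0 called, with medians of 0.50 and 0.37 on the log2 scale beside 0.0035 and 0.0056 over all genes. Of 12 early progenitor genes 7 were compared and 0 called. Of 11 NuRD genes 7 and of 14 BAF genes 9 were compared, and 0 were called. Over all genes compared in this gate 0.0993% were higher and 0.165% lower, so these counts of 0 are near that share. Barcodes with at least 3 UMIs of the B lineage list other than *Il7r* had *Bcl11a* at 146 CPM (127 to 168) in FL001 and 170 CPM (146 to 196) in FL002, and those with at least 5 UMIs of the dendritic list had 133 CPM (107 to 165) and 126 CPM (93.7 to 166). Barcodes with at least 10 UMIs of the mast cell list had 26.1 CPM (13.46 to 45.5) and 37.7 CPM (18.8 to 67.5), and *Bcl11b* was found there in 2 of 51 and 0 of 44. Those with at least 20 UMIs of the myeloid list had *Bcl11a* at 102 CPM (83.6 to 124) and 55.6 CPM (40.6 to 74.4), and *Bcl11b* in 1 of 89 and 1 of 99. *Bcl11a* thus stood higher in both libraries in barcodes with B lineage or dendritic markers than in those chosen by the mast cell list. The levels with B lineage or dendritic markers overlapped those of the whole Lmo2/Mef2c gate, 135 CPM (124 to 148) and 141 CPM (130 to 153). *Ighm* (178 and 121 CPM) and *Irf8* (119 and 81.9 CPM) were highest in that gate, whereas *Cpa3* was lowest there (20.8 and 40.2 CPM). The part of the gate in this difference was not tested. The mast cell list rested almost only on *Cpa3* and *Gzmb*. In the Il2ra gate these had 115 and 89.4 CPM in FL001 and 107 and 55.9 in FL002. *Fcer1a* and *Ms4a2* did not pass 2.38 CPM in any gate, so the list does not show these barcodes to be mast cells. The dendritic list rested largely on *Irf8* and on *Tcf4*, which was at 60.4 to 99.3 CPM over all gates. In no gate did *Siglech* pass 3.06 CPM, *Itgax* 2.36 or *Cd74* 9.45. That list therefore does not show its barcodes to be dendritic cells.

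Embryonic globin genes, which *Bcl11a* represses in erythroid cells, gave no comparison. In the Lmo2/Mef2c gate of FL001 3 of the 3 genes were at 0 UMIs with *Bcl11a* and 2 without, and in FL002 3 on both sides.

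Within the Il2ra gate, where *Bcl11a* was past its highest level, 249 barcodes of FL001 and 462 of FL002 held it, and these were the deeper barcodes, with medians of 10212 against 6901 UMIs and 5331.5 against 4138. In this comparison, also added after the first results were seen, 0 of 2923 genes were higher (0%) and 1 was lower (0.0342%) by the same rule. That gene was *Cd3e*, with 54.8 CPM with *Bcl11a* and 95.3 without in FL001 and 55.8 and 95.5 in FL002. *Cd3e* was therefore lower where *Bcl11a* was found and higher where *Bcl11b* was found, among the same Il2ra barcodes. The barcodes with *Bcl11b* were the shallower ones and those with *Bcl11a* the deeper ones. The part of depth in the *Bcl11a* comparison was not tested.

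Over the 5 gates of both libraries, 10 points that share barcodes between gates, the genes most like each member were ranked by Pearson r of log2(CPM + 10) among 3283 genes. Closest to *Bcl11b* were *Agfg1* (0.997), *Cdh1* (0.994), *Hibadh* (0.992), *Hdac4* (0.990) and *Tspan2* (0.990). *Cdh1*, also among the leading 12 of the comparison in Il2ra barcodes, went from 2.43 and 3.06 CPM in the first gate to 200.1 and 177 CPM in the last. *Agfg1* started from a higher base, 37.5 and 36.0 CPM, and reached 257 and 236 CPM. Closest to *Bcl11a* were *Mgst3* (0.995), *Ppp1r2* (0.989), *Tspan14* (0.984), *Wbp11* (0.984) and *Dek* (0.982), a chromatin protein. *Mgst3*, a microsomal glutathione transferase, went from 75.8 and 84.0 CPM in the first gate to 28.0 and 42.9 CPM in the last. The value between *Bcl11a* and *Bcl11b* themselves was -0.898.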

How the data were processed

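Per the study's methods, 3' libraries were made with 10X Chromium and read on an Illumina NextSeq, and the authors ran CellRanger, whose version and annotation are not given in the sources used here. The submitters' processing notes name mm9. The values deposited by the authors are UMI counts per gene and barcode, not normalized and with all 737280 barcodes listed, and 28339 of 28692 gene identifiers were found in GENCODE M21. Counts of kept barcodes were summed per gate in Python 3.11.15 with numpy 2.4.6, scipy 1.17.1 and pandas 2.3.3, and divided by the summed UMIs. For thinned shares 1500 UMIs were drawn at random from each barcode without replacement. Scrublet scores came from scanpy 1.11.5 at an expected doublet rate of 0.06. It called 6 and 1 doublets, so doublets were kept and the 5% with the highest scores were left out as an alternative.

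Members, gates and lists were chosen with earlier results of these data known. The text names both members, the gate genes, for each comparison up to 12 genes higher and 12 lower ordered by the smaller of the 2 libraries' log2 ratios, the 5 genes most like each member, and genes of the lists. *Prtn3* and *H2-T3* follow from the lists and from the comparison added later. In counts simulated for the Il2ra comparison, over 2902 genes, 92 of 100 genes changed 2-fold and 95 of 100 changed 4-fold reached the minimum level. Of these 89 and 95 were found, with 0 unchanged genes called.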

Additional observations from a re-analysis of the deposited data

Results flagged for a closer look

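*Bcl11b* was high in barcodes that no comparison above uses. Barcodes with 500 to fewer than 1500 UMIs, 138 in FL001 and 175 in FL002, held *Bcl11b* at 120.6 CPM (67.5 to 199) in FL001 and 108.3 CPM (64.2 to 171) in FL002, above the 15.4 and 17.8 CPM of empty droplets, and above the 33.2 and 22.6 CPM of kept barcodes. It was found in 11 and 13 of them. *Ptcra* was at 185 and 235 CPM there, against 66.0 and 57.8 CPM in kept barcodes, and *Cd3g* at 1552 and 2720 CPM. *Bcl11a* was at 16.1 CPM (1.95 to 58.1) from 2 UMIs in FL001 and 102 CPM (59.6 to 164) in FL002. More than 10% of UMIs were mitochondrial in 76.1% and 49.7% of these barcodes, and the part of cell quality in these levels was not tested.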

How the results depend on the processing

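Thinning each barcode to 1500 UMIs lowered the shares given here. *Bcl11a* in the Lmo2/Mef2c gate was then found in 18.5% and 17.5% of barcodes and in the Ptcra/Lef1 gate in 4.46% and 8.42%, and *Bcl11b* in the Il2ra gate in 7.99% and 5.04% and in the Ptcra/Lef1 gate in 16.6% and 15.8%. With each barcode in 1 gate, *Bcl11b* in the Il2ra gate was found in 12.9% and 8.93% of barcodes, at 25.4 and 24.4 CPM, since the Ptcra/Lef1 gate took its barcodes. A mitochondrial maximum of 5% gave *Bcl11b* 46.7 CPM in the Il2ra gate of FL001. A minimum of 3000 UMIs gave it 26.1 CPM in that of FL002, and *Bcl11a* a share of 29.9% in the Ptcra/Lef1 gate of FL002. The minimum of 1000 UMIs and leaving out the 5% highest doublet scores kept the shares and levels of *Bcl11b* in these 2 gates, and of *Bcl11a* in the Lmo2/Mef2c and Ptcra/Lef1 gates, within their intervals. Leaving out barcodes shared by the libraries, chosen after seeing the data, did so for the shares of *Bcl11b*. Over all kept barcodes, the number with both genes over the product of shares went from 0.598 and 0.603 to 0.520 and 0.689 when thinned. These rested on 5 and 13 thinned barcodes with both. In the Il2ra gate, on 2 and 10 such barcodes, it went from 0.782 to 0.556 in FL001 and from 0.614 to 1.23 in FL002.

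For *Bcl11b* among Il2ra barcodes, 32 genes were higher and 9 lower with 50 CPM added, 94 were higher with a minimum of 20 CPM, 14 were higher and 0 lower with a minimum of 200 CPM, and 35 were higher with depth weighting. Among barcodes with *Ptcra* and *Lef1* at 0, an alternative chosen after seeing the data, 11 were lower, and *4930519L02Rik* turned direction in FL001, with a log2 ratio of 0.076. A single library gave 81 to 88 higher and 29 to 39 lower. For *Bcl11a* in the Lmo2/Mef2c gate, 1 gene was higher and 3 lower with 50 CPM added, 10 were lower with a minimum of 20 CPM, and 0 were higher and 1 lower with a minimum of 200 CPM. Thinned, 12 were higher and 9 lower, with 2 and 2 of the 3 and 5 among them, and 12 were lower with 2 UMIs of *Bcl11a* against 0. Without barcodes with megakaryocyte markers, chosen after seeing the data, 1 was lower. A single library gave 7 to 15 higher and 9 to 15 lower. Of the main results under all alternatives, 113 values stayed the same and 37 moved. Of the single genes and other gates under all alternatives, 655 values kept their side of the fold or interval, 48 moved and 1 turned. The cause of these moves was not tested. No paired analysis was possible because both libraries belong to 1 group. With 1 label for both libraries, no difference between them can be tied to a condition, and at these depths a barcode without a UMI may still hold the transcript.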
